A study of Homo sapiens with 6 samples.

Results

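A group of 10 genes of growth factor receptor signalling was followed in SW872 cells, an established human liposarcoma line, with and without Apatinib. The group held the receptor genes INSR, IGF1R, EGFR, ERBB2 and ERBB3, the adapter genes IRS1 and IRS2, the PI3K inhibitor gene PIK3IP1, and the forkhead factor genes FOXO1 and FOXO3. The genes were taken as a list of names and matched by symbol, which found 10 of 10 among the 57773 genes of the count table. All 10 passed the filter on low counts and were tested together with every other expressed gene, 16290 in all. RNA was sequenced from 3 libraries of cells exposed to 18 μM Apatinib for 24 h, the Apatinib group, and 3 libraries of untreated cells, the control group. One field of the labels, the treatment protocol, names Apatinib for the control samples as well, while their titles call them controls and their treatment is given as none, which the grouping follows. The study's methods describe the 3 libraries of a group as biological replicates. Both groups were the same single line grown with serum, no other agent or allele was named, and no vehicle was named for the control group. The comparison asked which transcripts differ in liposarcoma cells after exposure to Apatinib, an inhibitor of the VEGF receptor kinase encoded by KDR.

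Receptors for insulin, insulin-like growth factors and epidermal growth factors are tyrosine kinases that recruit adapters such as IRS1 and IRS2 and thereby activate PI3K and AKT. Active AKT phosphorylates the FOXO transcription factors and keeps them out of the nucleus. When AKT activity falls, FOXO factors can enter the nucleus and induce genes of the same circuit, including receptor and adapter genes, a feedback known from several tumor cell types. FOXO activity is set mainly by phosphorylation and location of the protein, which RNA levels do not measure.

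Few of these transcripts passed the test. PIK3IP1 was the only one of the 10 genes that met the criteria for a differentially expressed gene (DEG), namely a log2 change of more than 0.5 in either direction at an FDR under 0.05, and it rose 1.69-fold (95% CI, 1.23 to 2.32; n = 3 per group). ERBB2 also passed the FDR limit, with a fold change of 1.39 (95% CI, 1.14 to 1.71), but lay just under the fold limit. The other 8 genes did not pass the test, which does not show that they were unchanged. The 1 DEG is 10% of the 10 genes, beside 11.5% of all genes tested (5.97% higher and 5.48% lower), so the share of DEGs was close to the background.

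The promoters of the genes on which the comparison turns are shown first. They span 250 bases before to 50 bases after an annotated start site, come from RefSeq on GRCh38.p14, and were matched by symbol. The deposited values use hg19, so no coordinate of the files was joined to them. The windows belong to PIK3IP1, the DEG, to ERBB2, which passed the FDR limit alone, and to IRS2, which had the next smallest p-value of the 10 genes. Capitals mark a match to the forkhead motif GTAAACA or to the insulin response element core TGTTTTG, both searched on both strands; the motifs do not contain each other.
PIK3IP1, chr22:31292439-31292738, minus strand: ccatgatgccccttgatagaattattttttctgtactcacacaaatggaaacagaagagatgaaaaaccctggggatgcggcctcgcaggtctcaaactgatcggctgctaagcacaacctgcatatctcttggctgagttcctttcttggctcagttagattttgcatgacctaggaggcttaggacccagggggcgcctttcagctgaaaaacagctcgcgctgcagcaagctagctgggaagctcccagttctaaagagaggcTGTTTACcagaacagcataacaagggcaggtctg
ERBB2, chr17:39687844-39688143, plus strand: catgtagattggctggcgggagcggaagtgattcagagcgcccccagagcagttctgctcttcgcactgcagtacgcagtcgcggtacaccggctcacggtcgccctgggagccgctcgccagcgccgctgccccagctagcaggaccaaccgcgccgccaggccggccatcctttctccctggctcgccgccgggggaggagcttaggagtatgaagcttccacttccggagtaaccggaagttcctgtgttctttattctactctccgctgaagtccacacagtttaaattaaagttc
IRS2, chr13:109786534-109786833, minus strand: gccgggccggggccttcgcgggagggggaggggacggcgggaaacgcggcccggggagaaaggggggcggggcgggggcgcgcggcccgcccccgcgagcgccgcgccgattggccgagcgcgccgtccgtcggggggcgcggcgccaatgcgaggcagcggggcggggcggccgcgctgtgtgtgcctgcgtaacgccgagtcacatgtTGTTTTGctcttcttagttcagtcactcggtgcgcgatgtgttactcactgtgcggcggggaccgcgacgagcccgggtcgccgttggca

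The PIK3IP1 window held GTAAACA on the strand opposite to the gene, beginning 17 bases after the start site and written as TGTTTAC in the printed strand. PIK3IP1 has another window in the table, with a start site a short distance upstream. That window overlaps most of the printed one but ends before the match, and it held neither motif. The IRS2 window held TGTTTTG, beginning 40 bases before the start site. The ERBB2 window, the only one the table gives for this gene, held neither. The table gave 14 windows for 9 of the 10 genes, and none for ERBB3. GTAAACA was found in 1 of the 14 windows, beside 3.42% of all 35116 promoters in the table, and TGTTTTG in 1 of the 14, beside 4.92%. The GC content was 75.7% in the IRS2 window, 60.7% in the ERBB2 window and 49.7% in the PIK3IP1 window, and its median over all promoters was 58.7%. A match of 7 letters is a description of the window and not a binding site.

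The libraries held 17043314 to 22067558 counts, the most in control replicate 3, and TMM factors were 0.952 to 1.03. The counts of control replicates 1 and 2 were nearly alike. They differed by a chi-square of 2.27 per gene on average, against 18.2 to 44.5 in the other pairs within a group. This exceeded counting noise, which does not show whether the 2 libraries came from separate cultures. Both were kept as the methods describe them, and calls were also made with the 2 libraries summed as 1 sample. With them summed, 0 of the 10 genes and 292 of all genes were DEGs (207 higher and 85 lower), against 1 and 1866 with 6 libraries (973 higher and 893 lower). Mesenchymal markers were present (7 of 7 tested; VIM had a mean FPKM of 936 in the control group), and their summed FPKM was 1201 to 1310 in the control and 1489 to 1689 in the Apatinib group. Of 7 adipocyte markers 3 were tested, PPARG among them, while FABP4 and ADIPOQ were at 0 counts, and the summed FPKM was 21.9 to 24.4 and 23.1 to 32.3. Summed FPKM was 155 to 186 and 186 to 222 for 6 epithelial markers, of which 3 were tested and EPCAM and CDH1 were near 0. All 3 tested epithelial markers lay higher in the Apatinib group without overlap, and 2 of them (KRT8 and ESRP1) were DEGs, with a median log2 fold change of 0.71 over the 3. The sum was 5.67 to 7.40 and 9.68 to 15.4 for 7 immune and endothelial markers, of which PTPRC was at 0. CD68 held most of that difference, with a mean FPKM of 2.65 and 9.05 at 0 to 1 counts per library, and the 4 tested markers went both ways, with VWF a DEG at a log2 fold change of 1.52 and CDH5 at -1.22. One mesenchymal marker, COL3A1, and one adipocyte marker, LPL, were DEGs and higher. The part of these shifts in the results was not tested.

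Levels between genes were compared as FPKM, which corrects for transcript length. In the control group, EGFR had the highest level at 24.0 ± 0.795 FPKM (mean ± SD, n = 3), followed by ERBB2 at 14.5 ± 0.958. FOXO3 (6.67 ± 0.193), IGF1R (5.24 ± 0.265) and IRS1 (4.92 ± 0.455) formed a middle range. INSR (2.11 ± 0.238), FOXO1 (1.94 ± 0.244), IRS2 (1.33 ± 0.0496) and PIK3IP1 (1.04 ± 0.131) were lower, and ERBB3 was lowest at 0.0854 ± 0.0434. The order of the 10 means was the same in the Apatinib group, where EGFR was at 28.1 ± 5.64 FPKM and ERBB2 at 20.3 ± 1.67. Neighbours whose replicates overlapped were IGF1R and IRS1, and INSR and FOXO1, in both groups. In the Apatinib group FOXO3 and IGF1R, FOXO1 and IRS2, and IRS2 and PIK3IP1 overlapped as well, so their order there is not resolved. EGFR and ERBB2 thus had the most RNA per length of the 10 genes in both groups.

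**Figure D1:**
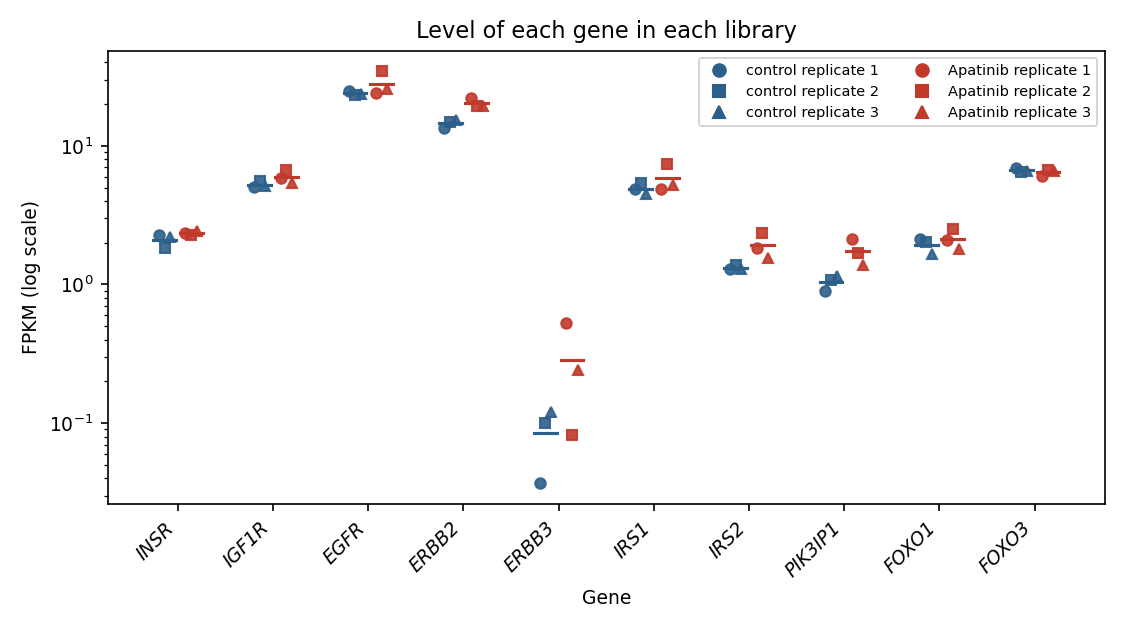
FPKM of the 10 genes in the 6 libraries, on a log axis, with each point 1 library of the control or Apatinib group. Genes stand in a fixed order, receptors first, then adapters, PIK3IP1 and the FOXO factors. EGFR lies highest in both groups and ERBB3 lowest, at 0.0854 FPKM in the control group, and the order of the 10 means is the same in both groups.

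Among the receptors, INSR (ENSG00000171105) encodes the insulin receptor. Its normalized counts were 23.8, 20.8 and 26.5 CPM (counts scaled to library size) in control replicates 1 to 3 and 27.3, 25.3 and 26.1 CPM in Apatinib replicates 1 to 3. The groups overlapped, and the log2 fold change was 0.15 (95% CI, -0.15 to 0.45; edgeR FDR = 0.507). IGF1R (ENSG00000140443), the receptor for insulin-like growth factors, was at 79.9, 86.5 and 87.0 CPM in the control and 95.7, 104 and 88.2 CPM in the Apatinib group. All Apatinib libraries lay above all control libraries, but by little in replicate 3. The log2 fold change of IGF1R was 0.18 (95% CI, -0.08 to 0.44; edgeR FDR = 0.320), which did not pass the test.

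EGFR (ENSG00000146648) encodes the epidermal growth factor receptor. It was at 305, 311 and 308 CPM in the control group, the narrowest relative spread of the 10 genes there, and at 324, 430 and 328 CPM in the Apatinib group. The groups did not overlap, yet Apatinib replicate 2 stood well above the other two. The log2 fold change was 0.23 (95% CI, -0.07 to 0.52; edgeR FDR = 0.276) with all libraries and 0.09 without Apatinib replicate 2. An EGFR difference of more than 1.44-fold lay outside the interval.

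ERBB2 (ENSG00000141736) encodes a receptor that binds no known ligand and signals as a partner of the other family members. It was at 80.8, 90.0 and 97.3 CPM in the control group and at 144, 114 and 116 CPM in the Apatinib group. Each Apatinib library was above each control library, with means of 89.4 ± 8.26 and 125 ± 16.7 CPM (SD, n = 3). The log2 fold change was 0.48 ± 0.134 (SE; edgeR FDR = 0.0394), past the FDR limit and short of the fold limit of 0.5. ERBB2 met both limits when Apatinib replicate 2, Apatinib replicate 3 or control replicate 3 was left out, with log2 fold changes up to 0.55. Its edgeR FDR was 0.118, 0.199 and 0.155 without Apatinib replicate 1, control replicate 1 and control replicate 2, and 0.165 with those 2 controls summed. Exons of ERBB2 overlap those of MIEN1 and PGAP3 on the opposite strand, and whether the counting used strand is not given. MIEN1 and PGAP3 had 1285 and 2170 counts over the 6 libraries, against 1400 to 2474 ERBB2 counts per library, and log2 fold changes of 0.11 (edgeR FDR = 0.714) and 0.35 (edgeR FDR = 0.174).

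ERBB3 (ENSG00000065361) encodes a receptor with little kinase activity of its own that couples strongly to PI3K when paired with ERBB2. It had 5, 16 and 17 counts in the control libraries and 25, 10 and 26 counts in the Apatinib libraries. These few counts overlapped between the groups, since Apatinib replicate 2 lay below control replicates 2 and 3. The log2 fold change of 0.82 (95% CI, -0.22 to 1.87; edgeR FDR = 0.270) was the largest of the 10 and the least precise. The interval of the fold itself ran from 0.857 to 3.65. ERBB4, the remaining family member, had 0 counts in all 6 libraries. By counting error alone this allows up to 0.137 to 0.174 CPM (3 counts). Such a bound may fail where counts and FPKM disagree, as they did for PIK3R2 and CD68.

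The adapters IRS1 and IRS2 link the insulin and IGF receptors to PI3K. IRS1 (ENSG00000169047) was at 57.7, 70.8 and 57.9 CPM in the control and 67.0, 90.9 and 66.4 CPM in the Apatinib group. The groups overlapped, since control replicate 2 lay above Apatinib replicates 1 and 3, and the log2 fold change was 0.27 (95% CI, -0.07 to 0.60; edgeR FDR = 0.263). With 1 library left out, the IRS1 log2 fold change ranged from 0.11 (without Apatinib replicate 2) to 0.37 (without control replicate 2). IRS2 (ENSG00000185950) was at 11.5, 12.3 and 12.2 CPM in the control and 16.8, 19.5 and 13.7 CPM in the Apatinib group. All Apatinib libraries lay above the controls, with replicate 3 nearest to them. IRS2 had a log2 fold change of 0.48 ± 0.164 (SE), equal to ERBB2 in size, but the edgeR FDR was 0.0759. Without Apatinib replicate 3 it was 0.60 and IRS2 passed the test (edgeR FDR = 0.0407). The difference between the IRS1 and IRS2 fold changes was not tested.

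PIK3IP1 (ENSG00000100100) encodes a membrane protein that binds the catalytic subunit of PI3K and inhibits it, and so acts against the receptors and adapters above. It was at 3.52, 3.96 and 4.53 CPM in the control group and at 8.38, 6.21 and 5.78 CPM in the Apatinib group. Each Apatinib library was above each control library, Apatinib replicate 1 farthest. PIK3IP1 rose from 4.01 ± 0.508 to 6.79 ± 1.39 CPM (SD, n = 3), a log2 fold change of 0.76 ± 0.210 (SE; edgeR FDR = 0.0392). These levels rested on 61, 72 and 99 counts in the control and 144, 110 and 101 counts in the Apatinib libraries. The call was lost without Apatinib replicate 1 (log2 fold change 0.58, edgeR FDR = 0.129), without control replicate 1 (0.67, edgeR FDR = 0.167) and without control replicate 2 (0.74, edgeR FDR = 0.146). With control replicates 1 and 2 summed the fold change was 0.71 and the edgeR FDR 0.137, and the test on FPKM did not call PIK3IP1 either. The antisense gene PIK3IP1-AS1 had 40 counts over all libraries.

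The tested genes whose log2 CPM followed PIK3IP1 most closely over the 6 libraries were EXT1 (Pearson r = 0.999), which encodes a heparan sulfate polymerase, LPPR3 (r = 0.998) and TSKU (r = 0.996). The 6 points include the difference between the groups, so these values are a description and carry no test. LPPR3 and TSKU were DEGs, with log2 fold changes of 0.79 (edgeR FDR = 0.0179) and 0.55 (edgeR FDR = 0.0300), and EXT1 had 0.39 (edgeR FDR = 0.0616).

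FOXO1 and FOXO3 encode the forkhead factors that AKT holds in check. FOXO1 (ENSG00000150907) was at 17.1, 16.4 and 14.1 CPM in the control and 17.9, 20.7 and 14.4 CPM in the Apatinib group, and the groups overlapped. The fitted log2 difference was 0.16 (95% CI, -0.21 to 0.52; edgeR FDR = 0.566). FOXO3 (ENSG00000118689), which was expressed more highly per length, was at 64.1, 62.5 and 66.0 CPM in the control and 61.9, 61.1 and 62.0 CPM in the Apatinib group. FOXO3 was the only one of the 10 genes whose Apatinib libraries all lay below the control libraries, and the distance was small: a log2 fold change of -0.06 (95% CI, -0.30 to 0.18; edgeR FDR = 0.765). FOXO3B, a near-identical copy, had 93 to 164 counts per library and differed by -0.11 on the log2 scale (edgeR FDR = 0.758), so reads of FOXO3 may have been split between the 2 genes. FOXO4 differed by 0.44 on the log2 scale (edgeR FDR = 0.120), from 14.1 ± 1.16 to 19.1 ± 4.26 CPM without overlap, and FOXO6 one of -0.06 (edgeR FDR = 0.917).

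**Figure D2:**
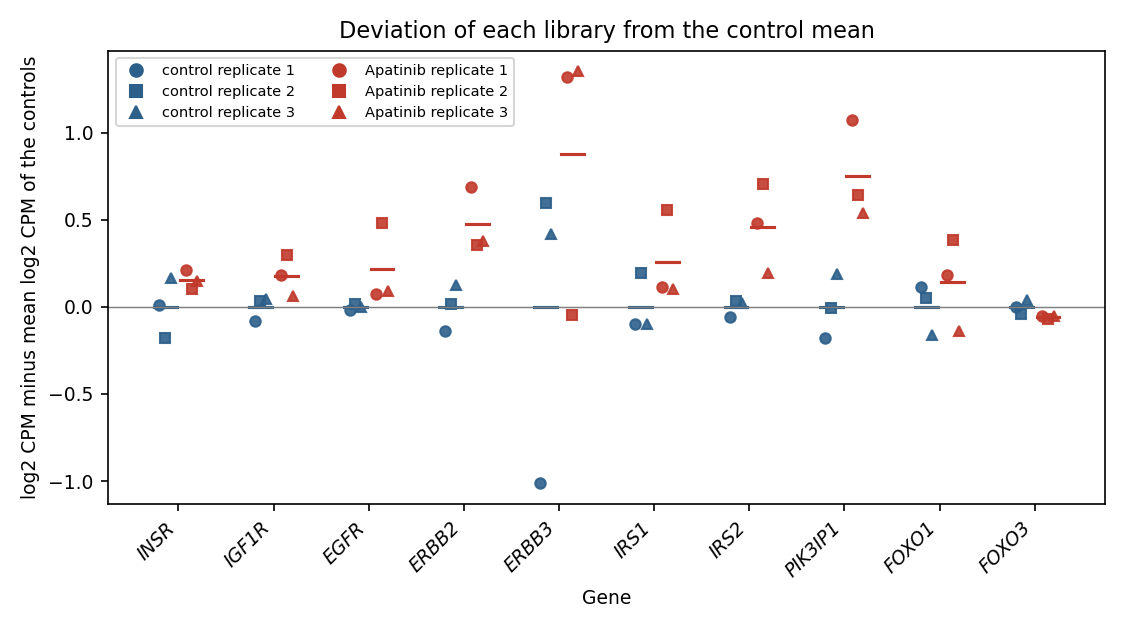
Log2 CPM of each of the 10 genes in each library, minus the mean log2 CPM of the 3 controls, with colour for the group and marker shape for the replicate. The Apatinib points of IRS2, IGF1R, EGFR, ERBB2 and PIK3IP1 all lie above the control points, and those of FOXO3 all lie below.

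Read across the 10 genes, 9 had a log2 fold change above 0, against 50.3% of all genes tested, and the median was 0.25, against 0.00. A set of 5 genes (IRS2, IGF1R, EGFR, ERBB2 and PIK3IP1) had all Apatinib libraries above all control libraries, which is 50% of the group beside 17.5% of all genes tested. One gene, FOXO3, was below in all, beside 15.7%, and without overlap in either direction were 33.2% of all genes. At an unadjusted p under 0.05 there were 3 genes (IRS2, ERBB2 and PIK3IP1), or 30%, beside 30.6% of all genes, and at an FDR under 0.05 alone 2 genes, beside 12.9%. The genes were therefore mostly on the higher side by small amounts, while the number that passed a test was close to the background. The 10 genes share libraries and were chosen with results of these data known, so no test was made over the list.

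The highest library was not the same for all 10 genes. Apatinib replicate 2 was the highest library for 5 of them (IRS1, IRS2, IGF1R, EGFR and FOXO1), Apatinib replicate 1 for 3 (INSR, ERBB2 and PIK3IP1), Apatinib replicate 3 for ERBB3 and control replicate 3 for FOXO3. Control replicate 1 was the lowest library for 7 genes. PIK3IP1 and ERBB2, the genes with the smallest p-values, thus had their highest level in another library than the IRS adapters and EGFR.

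**Figure D3:**
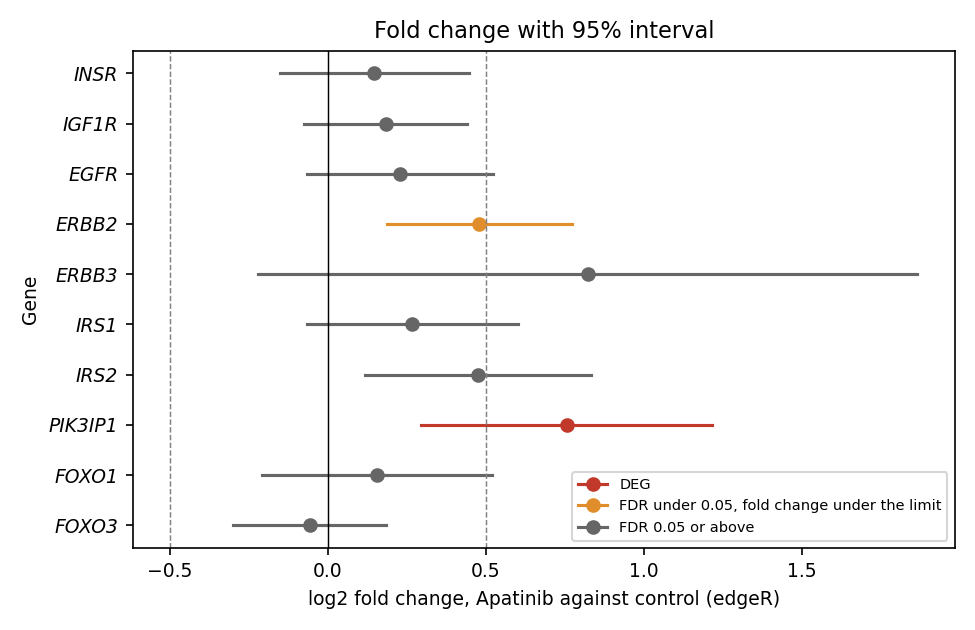
Log2 fold change of the 10 genes, Apatinib against control, from edgeR, with bars for the 95% confidence interval and colour for the call. The intervals of PIK3IP1 (0.30 to 1.22), ERBB2 (0.19 to 0.77) and IRS2 (0.12 to 0.83) lie above 0, and that of ERBB3 is the widest.

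The rest of the pathway was read from 4 lists. Of 40 genes known to be induced by FOXO factors, 35 were tested, of which 6 rose, 3 fell and 26 were no DEGs. The share of DEGs was 25.7%, beside 11.5% of all genes tested, and the median log2 fold change was 0.11, beside 0.00. The genes that rose were CDKN1A, a cell cycle inhibitor, GADD45A, a stress-induced growth arrest gene, PINK1, a mitophagy kinase, GABARAPL1, an autophagy gene, S1PR1, a sphingosine phosphate receptor, and EIF4EBP1, a repressor of translation. CDKN1A was at 10.5 ± 0.730 CPM in the control and 17.3 ± 4.13 CPM in the Apatinib group (log2 fold change 0.72, edgeR FDR = 0.0308). GADD45A was at 20.6 ± 1.26 CPM in the control and at 33.7, 96.5 and 27.4 CPM in the Apatinib group. This was 1.35 higher on the log2 scale (edgeR FDR = 0.0383), and 0.57 higher without Apatinib replicate 2. DESeq2 did not call GADD45A (FDR = 0.0790). PINK1 rose by 0.58 (edgeR FDR = 0.0268), GABARAPL1 by 0.56 (edgeR FDR = 0.0271) and EIF4EBP1 by 0.76 (edgeR FDR = 0.0213) on the log2 scale. S1PR1 had 5, 2 and 9 counts in the control and 40, 15 and 16 counts in the Apatinib libraries, which is 2.27 higher on the log2 scale (edgeR FDR = 0.0266). Without Apatinib replicate 1, which holds the 40 counts, the S1PR1 difference was 1.65 (edgeR FDR = 0.104), and DESeq2 gave S1PR1 no FDR.

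The genes of the same list that fell were SELENOP, which encodes a secreted selenium carrier, TXNIP, an inhibitor of thioredoxin and of glucose uptake, and BNIP3, a mitophagy receptor. SELENOP was at 38.1, 34.3 and 32.2 CPM in the control and at 16.3, 15.4 and 16.7 CPM in the Apatinib group. The groups were far apart, with a log2 fold change of -1.11 ± 0.132 (SE; edgeR FDR = 0.00213), and SELENOP was a DEG with any of the 6 libraries left out. TXNIP was at 587 ± 44.5 and 343 ± 133 CPM (log2 fold change -0.77, edgeR FDR = 0.0418), and BNIP3 at 69.2 ± 1.39 and 46.6 ± 1.41 CPM (-0.57, edgeR FDR = 0.0120). Further targets were no DEGs, with log2 fold changes of -0.09 (edgeR FDR = 0.699) for CDKN1B, another cell cycle inhibitor, -0.22 (edgeR FDR = 0.332) for BCL2L11, which encodes the death protein BIM, and 0.01 (edgeR FDR = 0.968) for SESN1, a stress-induced regulator of growth signalling. Of the 9 DEGs of this list, SELENOP alone was still a DEG without control replicate 1, without control replicate 2, or with both summed.

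Among 39 genes of PI3K, AKT and FOXO control, 34 were tested, of which 2 rose and 3 fell (14.7% DEGs, near the 11.5% of all genes tested), with a median log2 fold change of -0.11, beside 0.00. PIK3CD, a catalytic PI3K subunit, rose from 14.1 ± 1.43 to 23.0 ± 2.69 CPM (log2 fold change 0.71, edgeR FDR = 0.0152). The regulatory subunit genes PIK3R1 and PIK3R3 fell. PIK3R1 went from 101 ± 12.3 to 67.4 ± 10.7 CPM (-0.59, edgeR FDR = 0.0286). PIK3R3 went from 32.6 ± 4.29 to 22.6 ± 2.94 CPM (-0.53, edgeR FDR = 0.0424). PIK3R3 was not called with the replicate number as a block (edgeR FDR = 0.0529). With 1 library left out, PIK3R3 was called in 1 of 6 fits. RICTOR, a subunit of the mTOR complex that phosphorylates AKT, was at 149, 149 and 83.2 CPM in the control and 59.0, 78.5 and 88.5 CPM in the Apatinib group. It was called at -0.75 on the log2 scale (edgeR FDR = 0.0442) although control replicate 3 overlapped the Apatinib group. TRIB3, a stress-induced pseudokinase that binds AKT, was at 133 ± 29.5 CPM in the control and at 274, 699 and 190 CPM in the Apatinib group. This gave a log2 difference of 1.54 (edgeR FDR = 0.0268), and of 0.81 without Apatinib replicate 2. DESeq2 did not call TRIB3 (FDR = 0.0602). PIK3CA, the other catalytic subunit set for naming, differed by -0.50 on the log2 scale (edgeR FDR = 0.0605). The kinase genes AKT1 and AKT2 had log2 fold changes of 0.04 and -0.00, with edgeR FDRs of 0.870 and 0.997. Without control replicate 1 or control replicate 2, or with both summed, 0 of the 5 DEGs of this list were called.

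Of 20 genes for ligands and binding proteins, 15 were tested, of which 2 rose and 1 fell (20% DEGs, beside 11.5% of all genes tested), with a median log2 fold change of 0.29, beside 0.00. IGF2, a ligand of IGF1R and of one INSR isoform, rose from 16.8 ± 2.33 to 28.1 ± 8.16 CPM (log2 fold change 0.74, edgeR FDR = 0.0396). IGFBP2, which binds insulin-like growth factors outside the cell, rose from 285 ± 30.7 to 428 ± 62.2 CPM (0.59, edgeR FDR = 0.0240). IGFALS, which stabilises them in serum, had 11, 13 and 19 counts in the control and 4, 4 and 3 in the Apatinib libraries (-1.79, edgeR FDR = 0.0287), and was not called with any 1 of the libraries left out. IGF1 had 0 to 6 counts and INS had 0. None of these 3 DEGs was called without Apatinib replicate 1, control replicate 1 or control replicate 2, or with both controls summed, and DESeq2 gave IGFALS no FDR.

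Of 27 further adapter and feedback genes, 22 were tested, of which 2 rose, none fell (9.09% DEGs, near the 11.5% of all genes tested), and the median log2 fold change was 0.04, beside 0.00. Without Apatinib replicate 3 this list had 6 DEGs, and without control replicate 3 it had 5. SHC2, an adapter of receptor tyrosine kinases, was at 8.43, 8.36 and 9.57 CPM in the control and 20.1, 24.2 and 17.3 CPM in the Apatinib group. The log2 fold change was 1.22 ± 0.167 (SE; edgeR FDR = 0.00361), and SHC2 was a DEG with any of the 6 libraries left out. GRB10, an adapter that binds INSR and IGF1R and restrains their signalling, was at 42.6, 49.8 and 35.1 CPM in the control and 81.5, 150 and 70.7 CPM in the Apatinib group. All Apatinib libraries lay above the controls, with a log2 fold change of 1.25 ± 0.250 (SE; edgeR FDR = 0.0127), and 0.85 without Apatinib replicate 2. GRB10 was not called without control replicate 1 (edgeR FDR = 0.0584), while with control replicates 1 and 2 summed both genes were called. Both fitted fold changes were larger than that of any of the 10 genes.

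**Figure D4:**
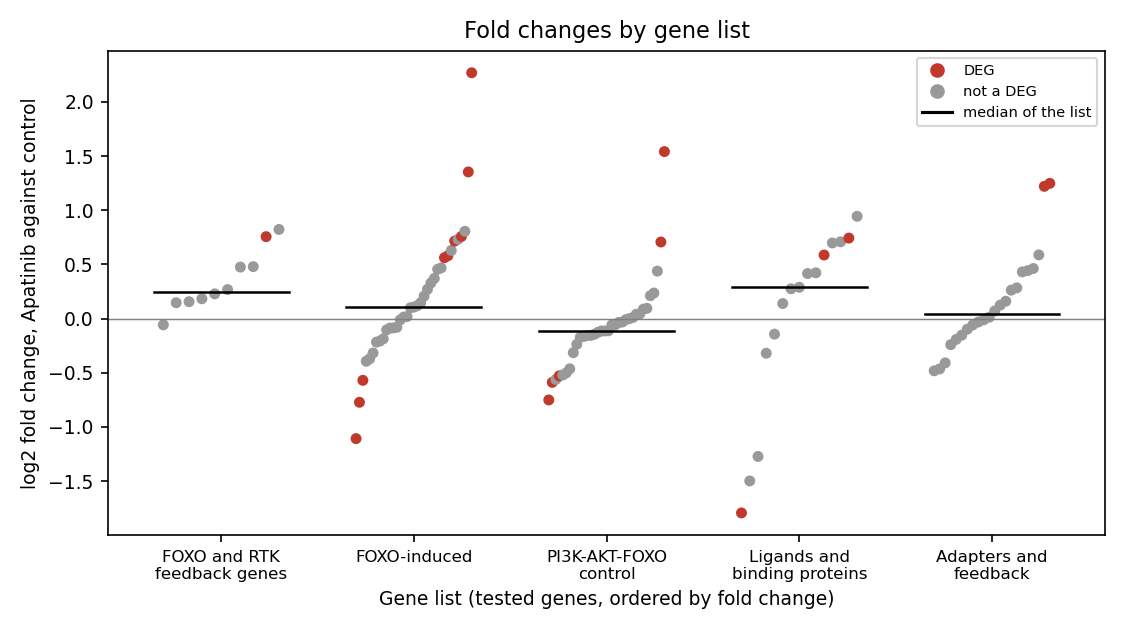
Log2 fold change of every tested gene in the 10-gene group and the 4 pathway lists, ordered within each list, with DEGs in red and a line at each list's median. The medians lie between -0.11 and 0.29, and DEGs of both directions appear in 3 of the 4 pathway lists.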

How the data were processed

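RNA of 3 Apatinib and 3 control libraries of SW872 cells was analysed, grouped by the labels. The authors deposited a table of counts, whole numbers without normalization, and, for each library, FPKM, which the authors scaled by transcript length and depth. The submitters' processing notes name CASAVA, STAR 2.7.1a and hg19. The counting program, its strand setting and the annotation are not given in the sources used here. The FPKM file of Apatinib replicate 1 has 1 further column, headed with a control's label, that was left out.

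The main test was the quasi-likelihood F test of edgeR 4.0.16 (R 4.3.3), without covariates, after TMM scaling and filterByExpr, which kept 16290 genes. P-values were adjusted by Benjamini-Hochberg over all genes tested. DEGs met the study's limits, a log2 change of more than 0.5 in either direction at an FDR under 0.05. CPM uses the TMM factors, and correlations used log2 CPM with a prior count of 2. SE and 95% intervals come from the same fit, whose biological coefficient of variation was 0.149. P-values set the difference between the groups against the spread between these libraries. In bulk RNA, fewer cells of a kind and less RNA per cell cannot be told apart. The test was tested on simulated data with known fold changes.

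The alternatives were DESeq2 1.42.0, RLE size factors, no filter, at least 10 counts in every library, a replicate block, each of 6 libraries left out, control replicates 1 and 2 summed, limma 3.58.1 on log2 FPKM with a pseudocount of 1 or of 0.1 (mean FPKM over 0.5), and the FDR limit alone. The chi-square between libraries left out genes under 50 counts in both together.

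The 10 genes, the 4 lists and the tests were chosen with earlier results of these data known. Named were the 10 genes, every DEG of a list (at most 8 by p), the genes FOXO4, FOXO6, ERBB4, PIK3CA, AKT1, AKT2, CDKN1B, BCL2L11, SESN1 and TXNIP whatever their values (some further genes set for naming are not reported here), and the 3 genes most correlated with the DEG of smallest p among the 10. Overlapping genes were found in GENCODE 29 by name. The marker lists hold adipocyte, mesenchymal, epithelial, and immune and endothelial genes. Motifs were searched in RefSeq promoters of GRCh38.p14.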

Additional observations from a re-analysis of the deposited data

How the results depend on the processing

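The directions of all 10 genes were kept in each alternative that could be fitted, and the calls of IRS1, INSR, IGF1R, EGFR, ERBB3, FOXO1 and FOXO3 did not change in any. ERBB3 could not be fitted with at least 10 counts in every library or on FPKM, and DESeq2 gave it no FDR. Counts of DEGs are given for all genes, the 10 genes, the FOXO-induced, PI3K-AKT-FOXO control, ligand and adapter lists. With control replicates 1 and 2 summed they were 292, 0, 1, 0, 0 and 2, and PIK3IP1 was at 0.71. With limma on log2(FPKM + 1) they were 796, 0, 4, 0, 1 and 1, with PIK3IP1 at 0.41, and on log2(FPKM + 0.1) 810, 0, 3, 0, 1 and 1, with PIK3IP1 at 0.67. PIK3IP1 had FDRs of 0.137, 0.113 and 0.116 there. No filter gave 6 ligand genes, and the FDR limit alone gave 2 of the 10 genes. DESeq2 called 2046 genes. The split of higher and lower DEGs was 207 and 85 with controls summed, 556 and 240 with limma on log2(FPKM + 1), 578 and 232 on log2(FPKM + 0.1), 192 and 83 without control replicate 1, 1102 and 1492 without control replicate 3, 997 and 1049 with DESeq2, and 1047 and 1168 with the replicate block. The cause of these changes was not tested. Leaving out 1 library gave 275 (without control replicate 1) to 2594 (without control replicate 3) DEGs over all genes, 0 to 3 among the 10 genes, 1 to 12 FOXO-induced, 0 to 6 control, 0 to 4 ligand and 1 to 6 adapter genes. Log2 fold changes ranged from 0.58 to 0.86 for PIK3IP1, 0.37 to 0.55 for ERBB2 and 0.35 to 0.60 for IRS2.

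With the replicate number as a block (replicate block), 2215 genes were DEGs, 1 of the 10 genes, 11 FOXO-induced, 5 control (4 of the 5 called without the block, PIK3R3 being lost), 6 ligand and 4 adapter genes. Same-numbered libraries did not deviate together (r of -0.26, 0.08 and -0.22), so the numbers were not taken to pair them. ERBB2 had an FDR of 0.0684 in that fit. Without control replicate 1 or 2, DEGs over all genes numbered 275 or 300. ERBB3 had the fewest counts of the 10 genes, 5 to 26 per library.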

Other observations

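The count table read near 0 for some genes where FPKM did not, which was noticed after the values were seen. PIK3R2, a regulatory PI3K subunit, had 0 to 1 counts per library but 17.8 to 28.0 FPKM. Another gene ID with the symbol PIK3R2 had 0 to 2 counts and 0 to 0.031 FPKM. CD68, a macrophage marker, had 0 to 1 counts but 1.79 to 11.8 FPKM.

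Of the receptor kinases known as Apatinib targets, 3 were looked up. KDR had 4 to 11 counts per library, KIT 0 to 1 and RET 0 to 7, and none of the 3 passed the filter on low counts. By comparison, EGFR had 5280 to 7619 counts per library. SHC1, which encodes an adapter of several receptor tyrosine kinases, passed the FDR limit (0.0444) at a log2 fold change of 0.44, under the fold limit, like ERBB2 among the 10 genes.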
